A study of Homo sapiens with 8 samples.

Results

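SNAI1, SNAI2, TWIST1, TWIST2, ZEB1, ZEB2, VIM and CDH2 are the classical transcription factors and markers of the mesenchymal state. They were chosen by name, 8 of 13703 genes in all, and all 8 stood among the 12700 genes listed for 143B and the 12810 listed for HOS. Polyadenylated RNA of these human osteosarcoma lines was sequenced in 2 libraries labelled sgNAT10 and 2 control libraries (NC) per line, 8 libraries in all, with no agent or time named in the labels. The series describes the sgNAT10 cells as knockouts of NAT10, the enzyme that acetylates cytidine in RNA. 143B was derived from HOS, so the lines share an origin. The labels name neither the guide sequence nor whether a library came from a clone, a pool or a separate culture, so p-values measure only the spread between these libraries, which may be technical.

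In carcinomas the SNAI, TWIST and ZEB factors drive the epithelial-mesenchymal transition, in which cells lose E-cadherin contacts and become motile. SNAI and ZEB proteins are zinc finger factors that bind E-box sequences and repress epithelial genes such as CDH1, and TWIST proteins are basic helix-loop-helix factors that bind E-boxes as dimers. VIM (vimentin) is the intermediate filament protein and CDH2 (N-cadherin) the adhesion protein used as mesenchymal markers. Osteosarcoma is a mesenchymal tumour, so its cells carry such factors without having passed through an epithelial state.

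Levels are FPKM, fragment counts scaled for transcript length and for the fragments mapped in a library, as deposited. The read depth is unknown. FPKM sums per library ran between 594407 and 798137 in 143B and between 484793 and 574807 in HOS. Changes are differences of log2(FPKM + 1), libraries labelled sgNAT10 minus NC within a line, which understates the change of low genes. They were tested with limma over all genes that reached 1 FPKM in 2 or more libraries of a line, and a gene is called at a Benjamini-Hochberg adjusted p under 0.05. For a single gene in groups of 2, the smallest p of an exact permutation test is 0.33, so calls rest on the spread pooled across genes. Replicates lay closer together in HOS than in 143B, with a median standard error of 0.108 against 0.313 on the log2 scale. The median change of all tested genes was -0.25 in 143B and 0.19 in HOS. Median-ratio scaling, which centres most genes, brought these medians to -0.017 and -0.0079, and a common FPKM sum brought them to -0.53 and 0.37.

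NAT10 itself had 9.05 and 7.19 FPKM in the 143B libraries labelled sgNAT10, against 16.06 and 19.95 FPKM in NC. HOS showed 21.13 and 19.14 FPKM in the libraries labelled sgNAT10, against 14.86 and 16.22 FPKM in NC, so its RNA was not lower there as labelled. The change was -1.06 in 143B (SE 0.31, limma adjusted p = 0.026) and 0.35 in HOS (SE 0.10, limma adjusted p = 0.0054). The 143B call was lost under median-ratio scaling (0.060), without NC replicate 2 (0.064) and without sgNAT10 replicate 1 (0.11) or replicate 2 (0.22). The HOS call was lost under median-ratio scaling (log2 0.14, limma adjusted p = 0.26), quantile normalization (0.090), the spread shared by all 8 libraries (0.23) and without sgNAT10 replicate 1 (0.18), and its value was -0.016 after length and GC correction. HOS directions below are therefore between libraries as labelled, and an RNA level alone does not test a knockout. Among osteoblast markers, SP7, IBSP and BGLAP were not listed in either line and COL1A2 was not listed in 143B. The 8 listed osteoblast markers summed to 23.2 and 31.8 FPKM in the 143B libraries labelled sgNAT10, against 66.9 and 96.0 FPKM in NC. In HOS the 9 listed summed to 889 and 818 FPKM under sgNAT10, against 674 and 764 FPKM in NC. They moved in the directions of SNAI1 below, and their part in the results was not tested. COL1A1, the main bone collagen chain, lay between 1.32 and 5.44 FPKM over the 143B libraries and between 313.72 and 421.08 FPKM over the HOS libraries.

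Promoter windows are shown for VIM and TWIST2, which were called lower in 143B and higher in HOS, as described below. They are also shown for ZEB1, which was called in HOS alone, as were SNAI2 and CDH2. The windows of CDH2 are not shown. RefSeq windows (GRCh38.p14, 300 bases, 250 before a start and 50 after it) were taken for TWIST2, ZEB1, ZEB2, VIM and CDH2. No windows of SNAI1, SNAI2 and TWIST1 were taken, so the promoters of these genes were not searched. The windows taken were searched for the E-box CACCTG, read on both strands and so also as CAGGTG. This E-box is the form bound by SNAI and ZEB proteins and is shown in capitals.
VIM, chr10:17227991-17228290, plus strand: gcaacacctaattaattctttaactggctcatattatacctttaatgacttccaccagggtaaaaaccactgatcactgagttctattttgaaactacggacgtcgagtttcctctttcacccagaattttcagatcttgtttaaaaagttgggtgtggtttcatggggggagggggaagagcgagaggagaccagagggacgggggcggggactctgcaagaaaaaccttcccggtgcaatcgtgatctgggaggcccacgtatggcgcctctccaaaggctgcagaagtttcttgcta
TWIST2, chr2:238847835-238848134, plus strand: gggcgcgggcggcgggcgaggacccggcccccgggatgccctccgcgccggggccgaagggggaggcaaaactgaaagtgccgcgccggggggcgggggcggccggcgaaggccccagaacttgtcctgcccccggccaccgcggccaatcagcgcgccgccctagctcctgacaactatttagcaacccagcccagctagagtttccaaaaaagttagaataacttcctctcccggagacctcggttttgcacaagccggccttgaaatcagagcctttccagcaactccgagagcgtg
ZEB1, chr10:31318966-31319265, plus strand: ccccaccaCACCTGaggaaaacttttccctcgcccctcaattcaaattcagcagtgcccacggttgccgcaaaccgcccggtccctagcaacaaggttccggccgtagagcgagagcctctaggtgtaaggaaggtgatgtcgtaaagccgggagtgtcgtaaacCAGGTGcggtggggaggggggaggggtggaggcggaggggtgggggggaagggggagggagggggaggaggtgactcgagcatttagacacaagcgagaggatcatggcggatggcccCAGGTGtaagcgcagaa
The ZEB1 window shown was the one with the most matches among the 7 of that gene. It holds 3 such E-boxes, of which 2 read CAGGTG and 1 reads CACCTG on the printed strand. The motif stood in 2 of the 7 ZEB1 windows and in none of the 5 windows of VIM, TWIST2, ZEB2 and CDH2. The motif is present in 20.6% of all 35116 windows given, and 0.635% hold 3 or more. The last share is for windows not picked by their matches, so it cannot be set against the ZEB1 window shown. A match describes these letters and is not a binding site, and its absence from a window says nothing of other sequence.

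SNAI1 (chr20:49982999-49988886, plus strand; GRCh38, GENCODE release 29, as for the other genes, all protein coding) had the widest swing of the 8 genes, and it went in opposite directions in the lines. In 143B its values were 1.45 and 1.26 FPKM in the libraries labelled sgNAT10, against 10.71 and 11.05 FPKM in NC. For HOS the FPKM were 10.83 and 11.68 in the libraries labelled sgNAT10, against 1.2 and 1.06 FPKM in NC. Within each line the groups lay far apart. In bulk RNA, fewer cells with SNAI1 RNA and less of it per cell cannot be told apart. In FPKM the level of the 143B controls was close to that of the HOS libraries labelled sgNAT10. The tables may be scaled separately, and levels were not tested across them. By percentile among the genes listed, SNAI1 stood higher in the 143B controls (63.9 and 59.3) than in those HOS libraries (50.4 and 53.0). The change was -2.34 in 143B (SE 0.33, limma adjusted p = 0.0019) and 2.52 in HOS (SE 0.11, limma adjusted p = 4.2e-11). SNAI1 ranked 3 among the rises of 11957 genes in HOS and 162 among the falls of 11419 genes in 143B. Near 1 FPKM the size depends on the pseudocount: with 0.1 in place of 1 the changes were -2.92 in 143B and 3.21 in HOS, and with 5 they were -1.32 and 1.41. Both calls held under every alternative run.

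**Figure D1:**
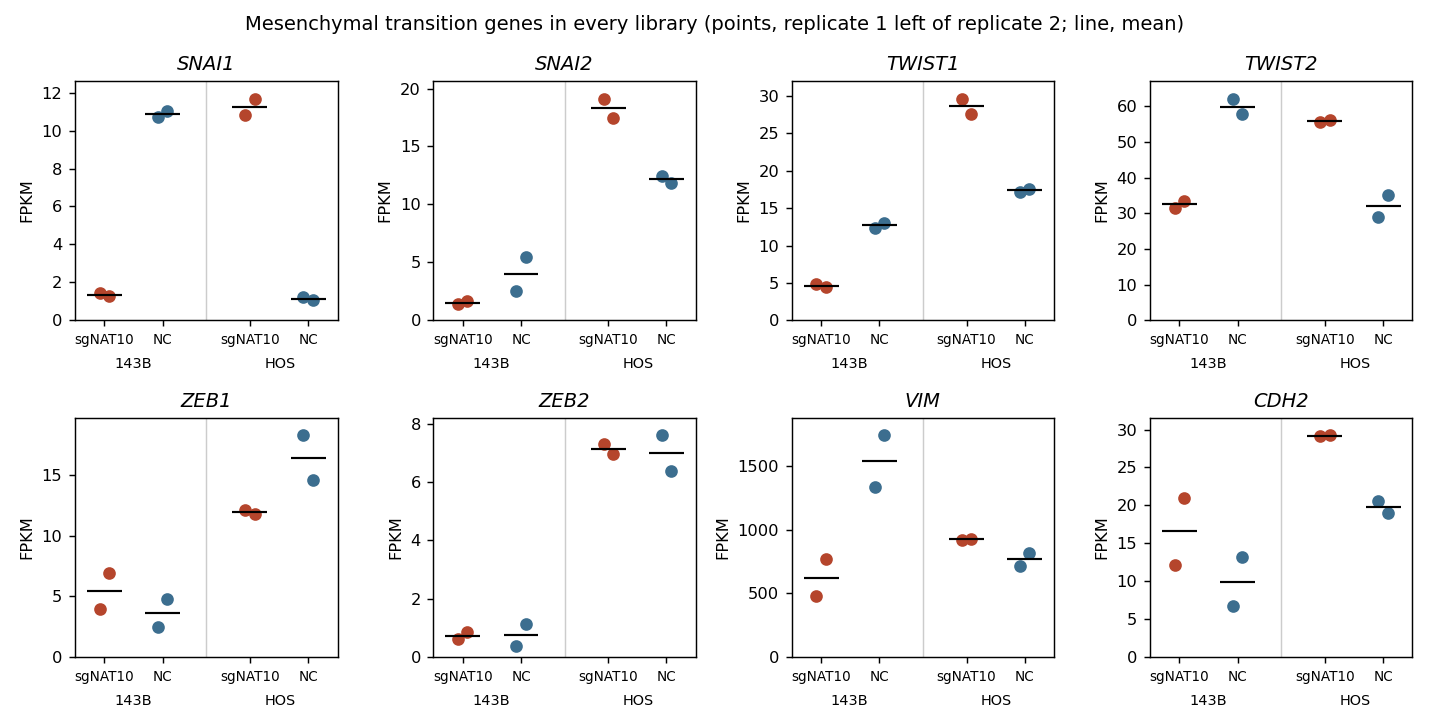
FPKM (linear axes from 0) of each gene in every library, libraries labelled sgNAT10 left of NC within 143B and HOS; points are libraries and lines are means of 2. SNAI1 lay at 1.26 to 1.45 FPKM in 143B sgNAT10 and at 10.83 to 11.68 FPKM in HOS sgNAT10, with the controls placed the other way round.

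TWIST1 and TWIST2 followed SNAI1 in direction with smaller changes. TWIST1 (chr7:19020991-19117672, minus strand) had 4.78 and 4.44 FPKM in the 143B libraries labelled sgNAT10, against 12.29 and 13.07 FPKM in NC. In HOS its values were 29.65 and 27.63 FPKM in the libraries labelled sgNAT10, against 17.19 and 17.6 FPKM in NC. The groups did not overlap in either line. Its change was -1.29 in 143B (SE 0.32, limma adjusted p = 0.014) and 0.69 in HOS (SE 0.10, limma adjusted p = 1.0e-05). The 143B call was lost without sgNAT10 replicate 1 (limma adjusted p = 0.12) and without sgNAT10 replicate 2 (0.14), with the log2 change at -1.33 and -1.24.

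TWIST2 (chr2:238848032-238910543, plus strand) was the most abundant of the 6 factors in all 4 groups. It had 31.61 and 33.53 FPKM in the 143B libraries labelled sgNAT10, against 62.13 and 57.72 FPKM in NC. The HOS table lists 55.6 and 56.13 FPKM in the libraries labelled sgNAT10, against 28.9 and 35.24 FPKM in NC. Again no library crossed to the other group's side. TWIST2 fell in 143B (log2 -0.86, SE 0.24, limma adjusted p = 0.022) and rose in HOS (log2 0.79, SE 0.10, limma adjusted p = 4.1e-06). The 143B call was lost under median-ratio scaling (log2 -0.58, limma adjusted p = 0.25), under quantile normalization (0.14), without NC replicate 1 (0.058), and without sgNAT10 replicate 1 (0.14) or replicate 2 (0.092).

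SNAI2 (Slug; chr8:48917604-48921740, minus strand), the close relative of SNAI1, was called in HOS and missed the threshold in 143B. It had 1.39 and 1.64 FPKM in the 143B libraries labelled sgNAT10, against 2.5 and 5.44 FPKM in NC, where the replicates differed widely. For HOS it read 19.12 and 17.5 FPKM in the libraries labelled sgNAT10, against 12.48 and 11.85 FPKM in NC. The HOS groups were tight and separate. The change was -0.92 in 143B (SE 0.36, limma adjusted p = 0.070) and 0.55 in HOS (SE 0.10, limma adjusted p = 0.00015). In 143B the call was gained under median-ratio scaling (limma adjusted p = 0.024), quantile normalization (0.020) and length and GC correction (0.00040), with the spread shared by all 8 libraries (0.021) and without NC replicate 1 (0.00043). With that shared spread the HOS call was lost (log2 0.55, limma adjusted p = 0.18). SNAI3, the remaining SNAI family gene, had 0.41 and 0.6 FPKM in the 143B libraries labelled sgNAT10, against 1.52 and 1.56 FPKM in NC. The HOS values were 1.19 and 1.11 FPKM in the libraries labelled sgNAT10, against 0.29 and 0.5 FPKM in NC.

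Neither ZEB factor had the calls of SNAI1 and the TWIST genes. ZEB1 (chr10:31318495-31529814, plus strand) had 3.96 and 6.91 FPKM in the 143B libraries labelled sgNAT10, against 2.5 and 4.8 FPKM in NC, and these groups overlapped. In the HOS table it had 12.15 and 11.78 FPKM in the libraries labelled sgNAT10, against 18.3 and 14.64 FPKM in NC, all lower than the controls. ZEB1 was not called in 143B (log2 0.48, SE 0.40, limma adjusted p = 0.38) and fell in HOS (log2 -0.42, SE 0.11, limma adjusted p = 0.0031). The HOS call was lost after rescaling to a common FPKM sum (log2 -0.22, limma adjusted p = 0.078), with the spread shared by all 8 libraries (0.33) and without sgNAT10 replicate 2 (0.051). In 143B it was gained under quantile normalization (log2 0.76, limma adjusted p = 0.025).

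ZEB2 (chr2:144364364-144524583, minus strand) was at the floor of the 143B table. It had there 0.61 and 0.85 FPKM in the libraries labelled sgNAT10, against 0.38 and 1.13 FPKM in NC, under the filter for testing. Without the filter its log2 change was 0.0095 (SE 0.23, limma adjusted p = 0.98). In HOS ZEB2 had 7.32 and 6.97 FPKM in the libraries labelled sgNAT10, against 7.6 and 6.39 FPKM in NC, and the NC libraries spanned both. Its HOS change was 0.03 (SE 0.11, limma adjusted p = 0.82), with a sign that turned under several alternatives.

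VIM (chr10:17228259-17237593, plus strand), the most abundant of the 8 genes, again had opposite signs in the lines. It had 481.52 and 766.08 FPKM in the 143B libraries labelled sgNAT10, against 1339.3 and 1741.42 FPKM in NC. HOS had 920.22 and 928.66 FPKM in the libraries labelled sgNAT10, against 715.69 and 819.05 FPKM in NC. The 143B groups were widely separated and the HOS groups narrowly. VIM fell in 143B (log2 -1.33, SE 0.33, limma adjusted p = 0.013) and rose in HOS (log2 0.27, SE 0.08, limma adjusted p = 0.0084). The 143B call was lost without sgNAT10 replicate 1 (limma adjusted p = 0.24) and after scaling by median ratios (0.12). With that scaling the HOS value was close to 0 (log2 0.042, limma adjusted p = 0.67), and it was lost with the shared spread (0.42) and without NC replicate 1 (0.059).

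CDH2 (chr18:27950966-28177446, minus strand), the other marker, had positive changes in both lines. It had 12.12 and 21.02 FPKM in the 143B libraries labelled sgNAT10, against 6.69 and 13.17 FPKM in NC. Its HOS values were 29.13 and 29.22 FPKM in the libraries labelled sgNAT10, against 20.53 and 18.98 FPKM in NC. The 143B groups overlapped, replicate 2 being the higher library under both labels, and the HOS groups did not. CDH2 was not called in 143B (log2 0.70, SE 0.40, limma adjusted p = 0.20) and rose in HOS (log2 0.54, SE 0.10, limma adjusted p = 0.0001). In 143B the call was gained under median-ratio scaling (log2 0.97, limma adjusted p = 0.020), quantile normalization (0.0035), length and GC correction (0.012) and without NC replicate 2 (0.016). The HOS call was lost with the shared spread (limma adjusted p = 0.25).

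**Figure D2:**
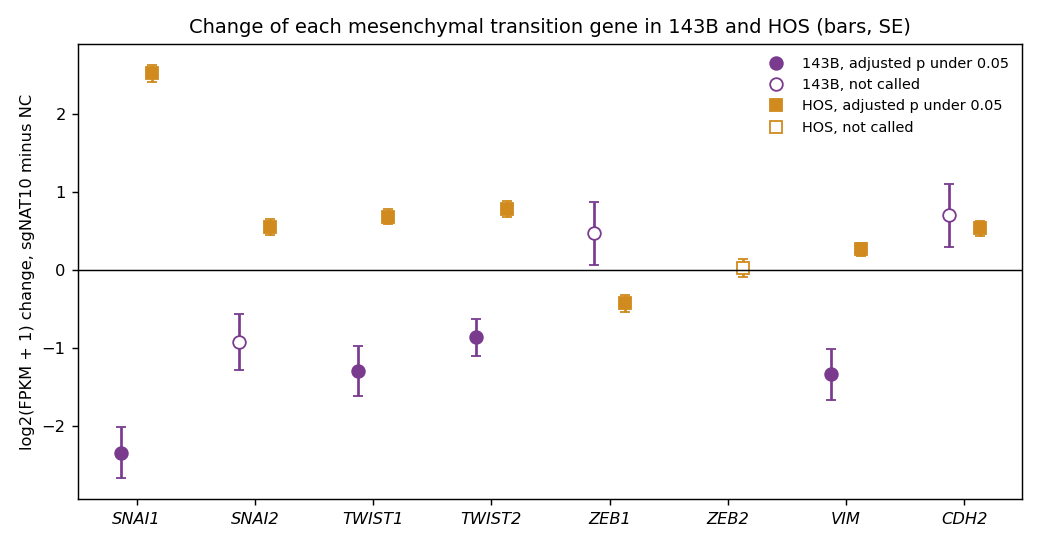
Change of each gene, libraries labelled sgNAT10 minus NC, in log2(FPKM + 1) units with SE bars; filled symbols are called at a limma adjusted p under 0.05. SNAI1, SNAI2, TWIST1, TWIST2 and VIM lie below 0 in 143B and above 0 in HOS, while ZEB2 was tested in HOS alone.

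In 143B 4 of the 7 tested genes were called, all of them lower (SNAI1, TWIST1, TWIST2 and VIM), where 25.4% of all tested genes were called lower and 38.3% in either direction. In HOS 6 of 8 were called higher and 1 lower, where 45.5% of all tested genes were called higher, 23.0% lower and 68.5% in either direction. Whether the counts in either line differ from the shares of all genes was not tested. In 143B the split was 1 higher and 3 lower under median-ratio scaling, where 2361 of all genes were called higher and 2541 lower. It was 2 and 4 in 143B under quantile normalization, beside 2797 and 2847 of all genes. In HOS it was 6 and 0 with a common sum, beside 7075 and 1703 of all genes. Groups did not overlap for 5 of the 7 genes in 143B, all lower, where 42.8% of all tested genes lay wholly lower and 23.9% wholly higher. In HOS 6 lay wholly higher and 1 wholly lower, against 53.9% and 29.2% of all tested genes. The median change over the tested genes of the set was -0.92 in 143B and 0.55 in HOS. With the spread shared by all 8 libraries the HOS count was 3 of 7 (SNAI1, TWIST1 and TWIST2), where 17.5% of all tested genes were called. Leaving out sgNAT10 replicate 1 or replicate 2 leaves 1 library in that group. Fewer genes were then called in 143B, both among these 7 and among all genes.

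The difference between the lines was tested directly, as the 143B change minus the HOS change, over 10655 genes that passed the filter in both tables. It was negative and called for 5 of the 7 genes tested, where 36.2% of all genes were called negative and 49.1% in either direction. The median difference was -1.60 over these genes and -0.44 over all genes. SNAI1 had a difference of -4.86 (SE 0.25, limma adjusted p = 9.7e-06), which ranked 8 among the most negative of all genes. The values were -1.97 for TWIST1 (SE 0.25, limma adjusted p = 0.00039) and -1.65 for TWIST2 (SE 0.24, limma adjusted p = 0.00073). For VIM the difference was -1.60 (SE 0.33, limma adjusted p = 0.0039), and for SNAI2 it was -1.47 (SE 0.39, limma adjusted p = 0.013). The SNAI2 call was lost without HOS NC replicate 2 (limma adjusted p = 0.053) and without HOS sgNAT10 replicate 1 (0.054). ZEB1 had a positive difference that was not called (0.90, SE 0.43, limma adjusted p = 0.11), and it was called under median-ratio scaling (1.34, 0.0050) and quantile normalization (1.39, 0.0018), after length and GC correction (0.62, 0.013), and without 143B NC replicate 2 (1.26, 0.015) or 143B sgNAT10 replicate 1 (1.23, 0.046). CDH2 showed no detectable difference between the lines (0.16, SE 0.46, limma adjusted p = 0.79), and its sign turned with a common sum.

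Of the 7 genes, SNAI1, TWIST1, TWIST2 and VIM were called lower in 143B and higher in HOS, as were 15.7% of all 10655 genes. No member was called higher in 143B and lower in HOS, a pattern of 3.63% of all genes.

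In the control libraries TWIST2 was the most abundant factor and TWIST1 the next by mean in both lines. In 143B NC the mean level was 1540 ± 284 FPKM for VIM (SD, n = 2, as for the following means), 59.9 ± 3.12 for TWIST2 and 12.7 ± 0.552 for TWIST1. SNAI1 followed at 10.9 ± 0.240 FPKM, CDH2 at 9.93 ± 4.58, SNAI2 at 3.97 ± 2.08, ZEB1 at 3.65 ± 1.63 and ZEB2 at 0.755 ± 0.530. CDH2 could not be separated from TWIST1 or SNAI1 by its replicates, nor SNAI2 from ZEB1. In HOS NC the order was VIM at 767 ± 73.1 FPKM, TWIST2 at 32.1 ± 4.48, CDH2 at 19.8 ± 1.10 and TWIST1 at 17.4 ± 0.290. ZEB1 followed at 16.5 ± 2.59 FPKM, SNAI2 at 12.2 ± 0.446, ZEB2 at 6.995 ± 0.856 and SNAI1 at 1.13 ± 0.099. TWIST1 and ZEB1 overlapped in HOS NC. SNAI1 was thus the lowest of the 8 genes in HOS NC, while it stood beside TWIST1 and CDH2 in 143B NC.

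Set side by side and untested, since the tables may be scaled separately, both 143B NC libraries lay above both HOS NC libraries for SNAI1, TWIST2 and VIM. The ratio of mean FPKM, 143B NC over HOS NC, was 9.63 for SNAI1, 2.01 for VIM and 1.87 for TWIST2. Both lay below for the other 5 genes, with ratios of 0.73 for TWIST1, 0.50 for CDH2, 0.33 for SNAI2, 0.22 for ZEB1 and 0.11 for ZEB2. Percentiles among the genes listed in a library, which do not depend on scaling, gave the same 3 genes above and 5 below. SNAI1 stood at percentiles 63.9 and 59.3 in 143B NC and at 12.7 and 10.7 in HOS NC. In the libraries labelled sgNAT10 all 8 genes had lower FPKM in 143B than in HOS, and by percentile ZEB1 and CDH2 overlapped.

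**Figure D3:**
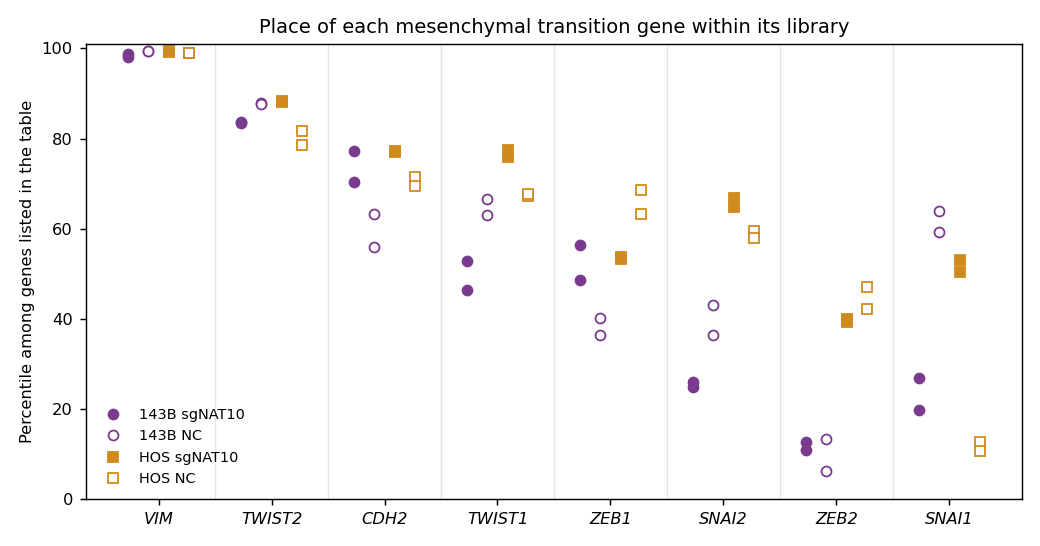
Percentile of each gene among the genes listed in its table, 1 point per library, ordered by HOS NC level. VIM stays above the percentile of 98 in every library, while SNAI1 lies at 10.7 to 12.7 in HOS NC and at 59.3 to 63.9 in 143B NC.

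The levels of the 8 genes within the libraries labelled sgNAT10 were ordered differently from the controls. In 143B CDH2 (16.6 ± 6.29 FPKM) came next after TWIST2 (32.6 ± 1.36 FPKM), and SNAI1 and SNAI2 overlapped at 1.36 ± 0.134 and 1.52 ± 0.177 FPKM. In HOS TWIST1 (28.6 ± 1.43 FPKM) and CDH2 (29.2 ± 0.0636 FPKM) overlapped, SNAI1 (11.3 ± 0.601 FPKM) stood just under ZEB1 (12.0 ± 0.262 FPKM), and ZEB2 was lowest at 7.15 ± 0.248 FPKM.

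The genes differ in base composition. By the longest GENCODE transcript, GC content was 58.2% for SNAI1, 57.2% for TWIST1 and 57.0% for TWIST2, against 38.5% for ZEB1, 39.1% for ZEB2, 45.0% for CDH2, 46.9% for VIM and 41.4% for SNAI2. Over all genes of the 143B fit the median change was -0.74 in the tercile richest in GC and 0.14 in the poorest. In HOS these medians were 0.34 and -0.10. After a correction for length and GC content, SNAI1 had changes of -1.85 in 143B and 2.42 in HOS. TWIST1 had -0.83 in 143B, against -1.29 without the correction, and 0.59 in HOS. TWIST2 had -0.50 in 143B, against -0.86 without it, and 0.75 in HOS. All of these were called. GC-poor SNAI2, at -1.14 in 143B (limma adjusted p = 0.00040) and 0.73 in HOS, had larger changes with the correction than without it.

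Genes with the most similar profiles were sought for each of the 7 genes, by Pearson's r of log2(FPKM + 1) centred within each line over the 8 libraries, among 10655 genes. The values are the highest that this search picked, so they are high by selection and are a description only. The libraries of a line share their scaling. SNAI1 was closest to ACP6 (r = 0.997), RAC2 (r = 0.997) and AACS (r = 0.996). TWIST1 was closest to DOT1L, NXT1 and SREBF2 (each r = 0.999), and TWIST2 to QSOX1 (r = 0.998), PPM1F and FAM50B (each r = 0.995). SNAI2 was closest to LPIN2, CHAMP1 and ZNF274, VIM to UBE2Q1, SPG21 and RRAGA, ZEB1 to HPS5, ZFP1 and WASHC4, and CDH2 to STT3B, GNA13 and HERC5. Of the 3 genes closest to SNAI1, RAC2, a small GTPase, had the changes nearest to it in size, at -1.70 in 143B and 1.89 in HOS.

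The counts of related genes stand beside the shares of all tested genes. Of these 12.9% were called higher and 25.4% lower in 143B, and 45.5% higher and 23.0% lower in HOS. The alternatives moved these calls too. Higher and lower calls numbered 2361 and 2541 of 11419 in 143B under median-ratio scaling, and 3762 and 4038 of 11957 in HOS. After length and GC correction they were 2746 and 3241 of 11224 in 143B, and 4082 and 3627 of 11773 in HOS. A common sum gave 896 and 3736 in 143B, and 7075 and 1703 in HOS. Quantile normalization gave 2797 and 2847 in 143B. Of 14 other mesenchymal markers 12 were tested in 143B, of which 1 rose and 7 fell, with a median of -1.16. MMP14, a membrane collagenase, fell (log2 -3.02, limma adjusted p = 0.00089), as did the matrix protein TNC (log2 -1.91), while TAGLN, an actin-binding protein of contractile cells, rose (log2 1.34, limma adjusted p = 0.0071). In HOS 8 of 14 rose and 3 fell with a median of 0.30, a balance that became 4 and 3 under median-ratio scaling, and 4 and 6 with a median of -0.097 after length and GC correction. The cadherin CDH11 rose in HOS (log2 0.87, limma adjusted p = 4.7e-06). Smooth muscle actin ACTA2 (log2 -3.21) and the fibroblast protease FAP (log2 -1.12) fell. ACTA2 was also called lower in 143B (log2 -1.11), where FAP was not listed.

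Epithelial genes known as targets of repression by the factors were sparse. Of 25 genes 13 were listed in 143B and 16 in HOS, and CDH1 (E-cadherin) was listed in neither line. In 143B 0 of 11 tested rose and 5 fell, a balance that became 1 and 4 under median-ratio scaling, 2 and 4 under quantile normalization and 3 and 2 after length and GC correction. MUC1, a surface mucin, fell (log2 -1.79), as did the keratin KRT19 (log2 -1.29). Tested HOS genes numbered 13, of which 7 rose, among them the tight junction gene CLDN1 (log2 0.93) and the keratin KRT18 (log2 0.65), and 2 fell, KRT19 (log2 -1.43) and MUC1 (log2 -1.14). That balance became 6 and 3 under median-ratio scaling and 5 and 3 after length and GC correction. KRT18 was abundant and had 4491.69 and 3390.68 FPKM in the 143B libraries labelled sgNAT10, against 3035.62 and 2036.8 FPKM in NC. That 143B change was not called (log2 0.65, SE 0.37, limma adjusted p = 0.2). The strict epithelial markers (2 of 7 listed in 143B and 3 of 7 in HOS) summed to 2.41 and 3.56 FPKM in the 143B libraries labelled sgNAT10, against 2.61 and 3.31 FPKM in NC. In HOS they summed to 20.2 and 22.5 FPKM in the libraries labelled sgNAT10, against 19.4 and 16.8 FPKM in NC. Of 5 blood markers CD14 alone was listed, at 2.06 FPKM at most. Of 4 endothelial markers 0 were listed in 143B and 2 in HOS, where they summed to 2.02 and 1.86 FPKM under sgNAT10, against 1.11 and 1.09 FPKM in NC. Neural and adipose markers summed to at most 4.09 FPKM in any library. The part of these markers in the results was not tested.

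Of 19 partners that act with the factors or set their stability, 15 rose and 4 fell in HOS (median 0.68), where 45.5% of all tested genes were called higher and 23.0% lower. RCOR1, a corepressor subunit (log2 1.51), and LATS2, a Hippo pathway kinase (log2 1.49), rose, while the histone deacetylase HDAC1 (log2 -0.51) and the methyltransferase EZH2 (log2 -0.49) fell. In 143B 1 of 18 rose and 4 fell (median -0.40), a balance that became 2 and 4 under quantile normalization. The gene that rose was FBXW7, a substrate receptor of a ubiquitin ligase (log2 1.45, limma adjusted p = 0.0087). LOXL2, a lysyl oxidase that binds SNAI1, fell in 143B (log2 -2.41, limma adjusted p = 0.00098), and so did the corepressor CTBP1 (log2 -1.18). LOXL2 had 11.46 and 12.53 FPKM in the 143B libraries labelled sgNAT10, against 66.17 and 69.99 FPKM in NC. The HOS values were 118.84 and 113.99 FPKM in the libraries labelled sgNAT10, against 55.5 and 63.79 FPKM in NC. LOXL2 was thus called lower in 143B and higher in HOS, as were CTBP1 and FBXL14 of this list and 15.7% of all 10655 genes. HDAC1 was called lower in both lines (log2 -1.15 in 143B), and FBXW7 was called higher in both (log2 0.77 in HOS).

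Further transition factors and the helix-loop-helix partners of TWIST were mixed in 143B, where 2 of 15 rose and 5 fell, a balance that became 4 and 3 under median-ratio scaling, 4 and 5 under quantile normalization or length and GC correction, and 1 and 5 with a common sum. FOXC2, a forkhead factor (log2 -2.59), and TCF3, which encodes the E-protein partners E12 and E47 (log2 -1.80), fell in 143B. TCF4, another E-protein gene (log2 1.42), and the homeobox factor PRRX1 (log2 1.32) rose. In HOS 10 of 16 rose and 2 fell, with SOX9, a chondrogenic factor (log2 1.59), and the AP-1 subunit FOSL1 (log2 1.41) as the largest rises. ID1 (log2 -0.56) and ID3 (log2 -0.37), inhibitors that sequester E-proteins, fell in HOS. In 143B ID3 was also called lower (log2 -1.06), and ID1 was not called (log2 -0.16).

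Among cadherins and catenins 0 of 9 rose and 5 fell in 143B, where 12.9% of all tested genes were called higher and 25.4% lower. The falls were led by JUP, plakoglobin (log2 -2.45), and the cadherin CDH24 (log2 -2.25). In HOS 5 of 10 rose and 3 fell, a balance that became 4 and 4 under median-ratio scaling, 6 and 1 with a common sum and 2 and 4 after length and GC correction. CDH11 and CDH4 (log2 0.68) rose in HOS, while CDH6 (log2 -0.63) and CTNNB1, beta-catenin (log2 -0.31), fell. CTNNB1 was also called lower in 143B (log2 -1.14), where CDH11 and CDH4 were not called and CDH6 was not listed. For intermediate filaments and their linkers other than VIM, 0 of 7 rose and 2 fell in 143B, LMNB1, lamin B1 (log2 -2.36), and KRT19, a balance that became 4 and 2 after length and GC correction. In HOS 2 of 8 rose, KRT18 and LMNB1 (log2 0.53), and 4 fell, a balance that became 4 and 3 after rescaling to a common FPKM sum. NES, nestin, led those falls (log2 -1.51).

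**Figure D4:**
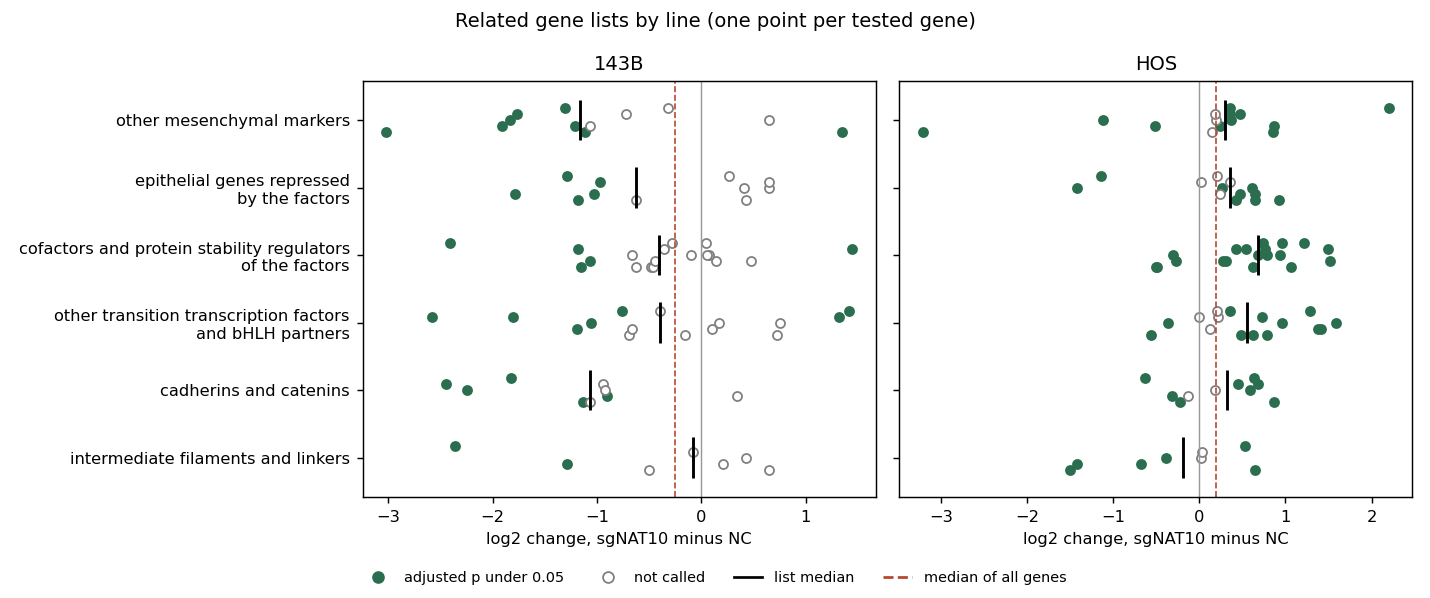
Change of every tested gene of 6 related lists in each line, libraries labelled sgNAT10 minus NC, in log2(FPKM + 1) units; filled points are called, black lines are list medians and dashed lines the medians of all genes (-0.25 in 143B, 0.19 in HOS). In 143B the cadherins and catenins and the other mesenchymal markers have the lowest medians, and in HOS the cofactors have the highest.

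**Figure D5:**
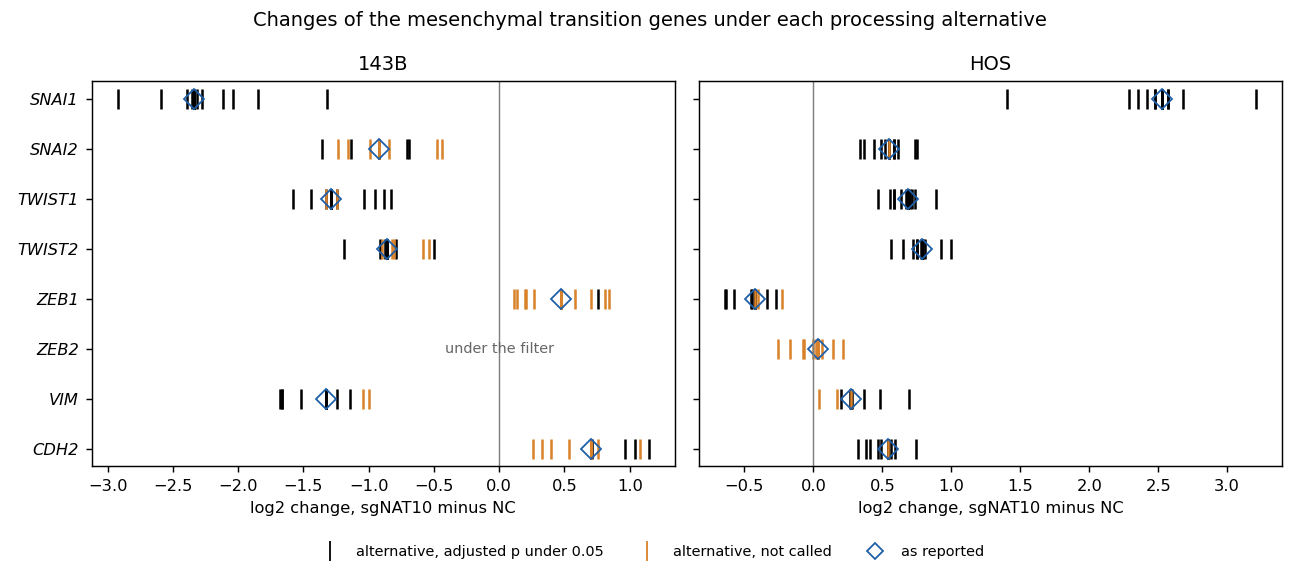
Log2 change of each gene, libraries labelled sgNAT10 minus NC, as reported (diamonds) and under each alternative (ticks, black where called); both panels have linear axes with different ranges. SNAI1 is called under every alternative in both lines, and the ZEB2 ticks in HOS lie on both sides of 0.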

How the data were processed

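Polyadenylated RNA was sequenced on BGISeq-500, per the labels' protocols. The authors deposited FPKM values, 1 table per line, per the file headers. Bowtie2, RSEM, DESeq2 and build GRCh38 are named without roles in the submitters' processing notes, and no source used here gives the annotation version. Each table lists genes above 0.5 FPKM in 2 or more of its libraries. Strand is not stated, so reads of VIM, TWIST1, ZEB1, ZEB2 and CDH2 cannot be told from those of their antisense neighbours.

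From the deposited FPKM, log2(FPKM + 1) was fitted with limma 3.58.1 in R 4.3.3 (intensity trend, two-sided, Benjamini-Hochberg over all genes), each line alone, and jointly for the difference between lines. Related genes named are the 2 largest called rises and falls of each list and line, of which 1 is not reported here. The 8 genes, the lists and that rule were chosen with earlier results of these data known. The alternatives covered pseudocount, filter, scaling, length and GC content (GENCODE release 29, spline with 4 degrees of freedom, matched for 97.9% of 143B genes and 98.0% of HOS genes), trend, replicate block, shared spread and each library left out.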

Additional observations from a re-analysis of the deposited data

Results flagged for a closer look

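Changes of 5 genes differed between the lines by the test of the difference itself. The 143B change minus the HOS change was -4.86 for SNAI1, -1.97 for TWIST1, -1.65 for TWIST2, -1.60 for VIM and -1.47 for SNAI2, on the log2(FPKM + 1) scale. Each of the 5 lay lower in both 143B libraries labelled sgNAT10 than in both 143B NC libraries, and higher in both HOS libraries labelled sgNAT10 than in both HOS NC libraries. NAT10 RNA had the same arrangement, with a difference of -1.41 (SE 0.29, limma adjusted p = 0.0036), and what part the labelling or the NAT10 level has in the differences was not tested.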

How the results depend on the processing

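SNAI1 kept its direction and call under 15 alternatives in 143B, 16 in HOS and 18 for the between-line difference, which was also called throughout for TWIST1, TWIST2 and VIM. With 1 library left out its group held 1, and the number of genes called varied, among the tested members and among all genes. With the spread shared by all 8 libraries 3 of 7 tested members were called in HOS. Of all tested genes 17.5% were then called, against 68.5% in the main fit. With the replicate block all 7 tested genes were called in 143B, 2 higher and 5 lower. Beside them 7652 of all 11419 genes were called, against 4370 without the block. In HOS 7 of 8 were called with the block, beside 65.9% of all tested genes. Same-numbered libraries deviated together in 143B (r = 0.61 across genes) and not in HOS (r = -0.11), and with 2 pairs per line and no label on their origin the numbers were not taken as pairs. Crossing the numbers in HOS, chosen after seeing the data, left the count at 7, beside 70.7% of all tested genes. The sign of ZEB2 in HOS turned under median-ratio scaling (-0.17), quantile normalization (-0.26) and length and GC correction (-0.066), and ranged from -0.079 to 0.14 with 1 library left out. For CDH2 the difference between lines turned to -0.35 with a common sum and ranged from -0.28 to 0.60 with 1 library left out. NAT10 in HOS turned to -0.016 after length and GC correction. The cause of these turns was not tested. With no read counts, the depth behind the low values of ZEB2 and SNAI1 is unknown.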
